A study of Arabidopsis thaliana with 12 samples.

Results

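The snap33 seedlings sampled at 5 and at 12 days make up 6 of the 12 RNA sequencing libraries of a study of the Arabidopsis thaliana SNARE gene SNAP33. They were chosen by sample title, with 3 libraries labelled snap33 at 5 d and 3 at 12 d, and all 32744 gene rows were used. The plants carry a T-DNA insertion described in the labels as a knock-out, and the 6 libraries of wild type, 3 at each age, serve as the comparison for the step from 5 to 12 d given in the titles. Every library came from untreated whole seedlings grown on solid medium under long days. The age in the titles and the dates in the labels part ways for this mutant. The labels give snap33 at 12 d a planting date of 9 March, 20 days before that of snap33 at 5 d, which was planted on 29 March. By those dates the 12 d libraries were harvested 32, 33 and 34 days after planting and the 5 d libraries 5, 6 and 7 days after, whereas wild type titled 12 d was harvested 12, 13 and 14 days after planting. Age and planting date cannot be told apart in snap33, and the groups are called 5 d and 12 d here only as their titles call them. Every difference from wild type in the change from 5 to 12 d holds this earlier planting date as well as the genotype, which cannot be told apart either.

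SNAP33 is a t-SNARE of the plasma membrane. Such proteins pair with a syntaxin on the target membrane and a VAMP protein on the vesicle and draw the membranes together until they fuse, a step used in secretion of wall and defence material and in building the cell plate between dividing cells. Young Arabidopsis seedlings live first on seed oil, then green, open leaves and pass from a juvenile to an adult state, while salicylic acid and jasmonate govern separate branches of their defence.

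Gene counts came to between 4304441 and 4813508 reads per library at 5 d and between 5028343 and 5383949 at 12 d. Replicates differed by a median of 0.152 to 0.251 per gene on the log2 CPM scale, and libraries of different age by 0.518 to 0.558. Chloroplast genes took 2.88% to 3.47% of counts at 5 d and 2.33% to 2.59% at 12 d. For snap33 12 d replicate 1 alone the protocol label adds a 3' sequencing format, and the genotype field of the wild-type libraries also holds the word knock-out. The level of SNAP33 is therefore given first.

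SNAP33 (AT5G61210) had 1, 3 and 8 counts in replicates 1 to 3 of snap33 at 5 d and 16, 14 and 14 at 12 d. All 6 values lay far below wild type, where SNAP33 stood at 21.3 ± 0.09 CPM (library-scaled counts; SD, n = 3) at 5 d and 24.4 ± 3.31 at 12 d. Within snap33 the level was 0.95 ± 0.87 CPM at 5 d and 2.74 ± 0.19 at 12 d, with no overlap between the ages (log2 fold change 1.53, SE 0.43, edgeR adjusted p = 0.00561). Its difference in age effect from wild type (1.33, SE 0.47, edgeR adjusted p = 0.0469) was lost under 14 alternatives, among them harvest day as a block (adjusted p = 0.0781 by edgeR). On chromosome 5 of TAIR10.1, from 24623248 to 24625631, SNAP33 shares 257 bases with an antisense gene, and the use of strand in counting is not stated, so the few remaining reads cannot be assigned with certainty.

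From 5 to 12 d most tested genes of snap33 changed. Of 18830 genes tested 10315 were called at an edgeR adjusted p under 0.05, which is 54.8%. They divided into 5305 higher (28.2%) and 5010 lower (26.6%) genes. With TMM scaling 2718 genes were at least 2-fold higher and 1565 at least 2-fold lower, and 599 and 26 passed 8-fold. In wild type 7670 genes were called (40.7%), 4055 higher (21.5%) and 3615 lower (19.2%). The age effect itself differed between the genotypes for 4466 genes (23.7%), being above that of wild type for 2065 (11.0%) and below it for 2401 (12.8%). Genes higher in both genotypes numbered 2579, which is 48.6% of those higher in snap33 and 63.6% of those higher in wild type. The median gene stood at 0.0 with TMM scaling and at -0.142 with upper-quartile scaling, and under the latter 40.9% of the calls in snap33 were higher, against 51.4% under the former. Upper-quartile scaling also brought the 2-fold counts close together, at 2333 higher and 2218 lower. Without snap33 12 d replicate 1, the library with its own protocol label, 4831 genes were higher and 4389 lower.

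The 6 largest rises were all genes at or near 0 counts at 5 d. PR1 (AT2G14610), a secreted protein used as the marker of salicylic acid defence, had 2, 1 and 0 counts at 5 d and 8056, 6977 and 6847 at 12 d, a count ratio of 5863 with an exact 95% interval of 2006 to 28434. GSTU3 (AT2G29470), a glutathione transferase of the tau class, had 0 counts in all 3 libraries at 5 d and 1410, 1313 and 1145 at 12 d, at least 1036.5-fold higher when the 5 d group is set at a floor of 3 counts. AOX1D (AT1G32350), an alternative oxidase of the mitochondrion, went from 0 counts to 725, 788 and 717, at least 597.6-fold higher. The other genes of this set have no gene name in the reference: AT5G63225, with a carbohydrate-binding X8 domain, AT2G44240, a DUF239 protein, and AT4G10860, an uncharacterised protein, rose at least 646.9-fold, 508.9-fold and 392.6-fold on the same floor. In wild type at 12 d these 6 genes stood between 0.187 and 9.08 CPM, against 91.2 to 1362 CPM in snap33. For PR1 and GSTU3 the difference between the genotypes was not called (edgeR adjusted p = 0.163 and 0.0998), nor for AT2G44240 and AT5G63225, whose errors cannot be used because both groups at 5 d are at 0. For AT4G10860 it was called (edgeR adjusted p = 0.000776). The difference for AOX1D lay at the threshold (edgeR adjusted p = 0.0497) and was lost under 13 alternatives, among them harvest day as a block (adjusted p = 0.0578 by edgeR).

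The 250 bases before the annotated start are shown for 5 of these genes because they rose together from almost no reads. Capitals mark the W-box letters TTGACC or TTGACT, which WRKY factors bind, and the letters TGACG, which TGA factors bind, on either strand. The sequences are from the RefSeq TAIR10.1 genome, 5′ to 3′ on the strand of the gene.
GSTU3 (chr2:12629641-12629890, minus strand): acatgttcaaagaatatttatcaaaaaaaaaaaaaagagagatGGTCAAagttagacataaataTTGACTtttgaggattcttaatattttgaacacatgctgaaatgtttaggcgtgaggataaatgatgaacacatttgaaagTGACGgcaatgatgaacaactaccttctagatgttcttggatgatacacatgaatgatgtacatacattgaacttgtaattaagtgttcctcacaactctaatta
AT5G63225 (chr5:25356768-25357017, minus strand): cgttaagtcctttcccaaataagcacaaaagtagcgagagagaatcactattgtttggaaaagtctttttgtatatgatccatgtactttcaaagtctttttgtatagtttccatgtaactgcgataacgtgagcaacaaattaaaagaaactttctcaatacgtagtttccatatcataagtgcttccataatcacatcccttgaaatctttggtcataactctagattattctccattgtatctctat
AOX1D (chr1:11668691-11668940, minus strand): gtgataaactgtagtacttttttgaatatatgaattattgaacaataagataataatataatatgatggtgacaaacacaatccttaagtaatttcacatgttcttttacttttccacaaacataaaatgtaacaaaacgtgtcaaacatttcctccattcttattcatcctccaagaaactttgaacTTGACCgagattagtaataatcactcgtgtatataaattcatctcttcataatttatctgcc
AT2G44240 (chr2:18289574-18289823, plus strand): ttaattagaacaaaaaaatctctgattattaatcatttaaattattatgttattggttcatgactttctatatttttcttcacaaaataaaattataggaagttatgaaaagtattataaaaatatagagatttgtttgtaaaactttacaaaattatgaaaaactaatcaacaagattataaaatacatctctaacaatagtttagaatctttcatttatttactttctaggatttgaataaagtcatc
AT4G10860 (chr4:6679509-6679758, minus strand): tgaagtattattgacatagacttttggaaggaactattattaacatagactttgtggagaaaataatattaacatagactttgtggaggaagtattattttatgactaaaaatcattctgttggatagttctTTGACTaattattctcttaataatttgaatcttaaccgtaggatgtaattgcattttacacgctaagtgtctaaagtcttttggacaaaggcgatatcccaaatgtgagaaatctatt

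GSTU3 held 2 W-box matches and 1 TGACG match, AOX1D and AT4G10860 held 1 W-box match each, and AT5G63225 and AT2G44240 held neither in this window. Over the windows of 18296 tested protein-coding genes, 28.4% held a W-box and 19.4% held TGACG. Among genes called at least 2-fold higher the shares were 36.7% and 23.2%, and among those at least 2-fold lower 23.6% and 17.0%. The G-box CACGTG stood in 7.58% of all windows, in 9.19% of the higher and in 5.56% of the lower ones, and the I-box GATAAG in 12.5%, 14.1% and 13.0%. By gene group, a W-box stood before 11 of 23 defence WRKY genes, 5 of 24 salicylic acid genes, 7 of 38 photosystem genes and 2 of 18 Calvin cycle genes. In the same order TGACG stood before 6, 5, 11 and 2 genes. The G-box stood before 3, 1, 6 and 3 of them and the I-box before 8, 4, 12 and 4. A match is a run of letters and not a bound site, and 19 windows held a W-box and a TGACG match that overlap.

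Salicylic acid synthesis and signalling rose almost as a whole. Of 24 genes tested 22 rose, 0 fell and 2 were not called, with a median log2 fold change of 2.85 beside 0.0 for all genes. ICS1 (AT1G74710), the isochorismate synthase that makes most of the pathogen-induced salicylic acid, had 60, 69 and 55 counts at 5 d and 789, 773 and 808 at 12 d. Its libraries were tightly grouped at each age and far apart between them, at 14.3 ± 1.96 and 148 ± 7.89 CPM (3.37, SE 0.14, edgeR adjusted p = 2.89e-13). PAD4 (AT3G52430), a lipase-like regulator that works with EDS1, had 43, 32 and 35 counts at 5 d and 835, 725 and 753 at 12 d, a 16.9-fold rise. PBS3 (AT5G13320), which conjugates isochorismate to glutamate on the way to salicylic acid, rose 92.2-fold, from 2.29 ± 1.09 to 216 ± 16.3 CPM. PBS3 also rose 19.5-fold in wild type, and its difference was not called (2.24, SE 0.83, edgeR adjusted p = 0.057). In wild type 13 of the 24 genes rose and the median was 0.61. The rise was larger in snap33 for 15 genes by the test of the difference and smaller for 1, BSMT1, a methyltransferase of salicylic acid that was itself not called in snap33. ICS1 was 10.3-fold higher in snap33 and stood at 9.42 and 14.0 CPM in wild type at 5 and 12 d (difference 2.79, SE 0.22, edgeR adjusted p = 6.49e-08).

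Pathogenesis-related and systemic resistance markers rose too, a list that also holds genes of the jasmonate and ethylene branch (PR3 and PR4). Of 14 markers 13 rose and 1, AZI1, fell, with a median of 3.42 in snap33 and 2.22 in wild type. PR2 (AT3G57260), a glucanase, had 112, 57 and 16 counts at 5 d and 2786, 2900 and 2642 at 12 d, a 36.5-fold rise. Replicate 3 was the lowest of the 5 d libraries for PR2, and also for PR5 (AT1G75040), a thaumatin-like protein, with 35, 32 and 12 counts against 862, 831 and 704. PCR1 (AT1G14880), a cadmium resistance protein of the plasma membrane, had 4, 4 and 0 counts at 5 d and 2747, 2778 and 2832 at 12 d. The rise of PR5 was above that of wild type (difference 4.36, SE 0.35, edgeR adjusted p = 6.49e-08), while for PR2 the difference was not called (1.08, SE 0.99, edgeR adjusted p = 0.473).

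**Figure D1:**
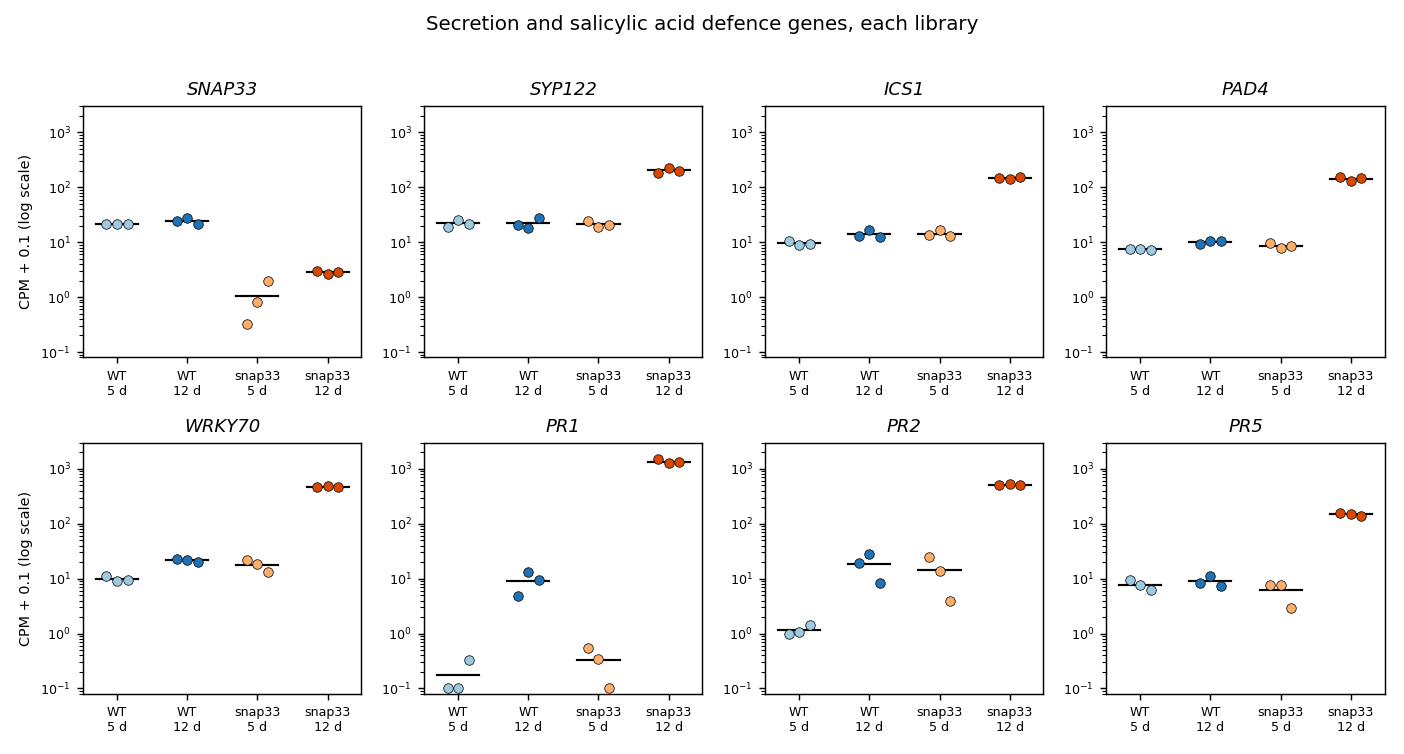
CPM plus 0.1 on a log axis for 8 genes in each of the 12 libraries, with a bar at the mean of each group of 3. SNAP33 stayed low in all snap33 libraries, and the other 7 genes stood highest in snap33 at 12 d.

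Receptors and transcription factors of immunity rose with them. Of 31 immune receptors and receptor kinases 29 rose, 1 fell (PEPR1) and 1 was not called (PEPR2), around a median of 1.68. WAK1 (AT1G21250), a wall-associated kinase, had 80, 42 and 33 counts at 5 d and 1032, 1138 and 1079 at 12 d, a 16.9-fold rise. WAKL10 (AT1G79680), a relative of it, went from 1, 2 and 0 counts to 204, 174 and 193, a count ratio of 153 with an interval of 52.1 to 744. WAKL10 rose in wild type too, and its difference was not called (edgeR adjusted p = 0.336). Of 23 defence WRKY factors 22 rose, 0 fell and WRKY29 was not called (median 2.89, against 0.82 in wild type). WRKY70 (AT3G56400), which acts downstream of salicylic acid, had 101, 76 and 54 counts at 5 d and 2589, 2625 and 2438 at 12 d. WRKY51 (AT5G64810) had 15, 7 and 13 counts and then 631, 624 and 564, while in wild type it stood at 2.78 CPM at 5 d and 2.26 at 12 d (difference 5.64, SE 0.39, edgeR adjusted p = 1.4e-08). By that test the age effect lay above that of wild type for 13 WRKY genes, WRKY29 among them, and for 14 receptors, and below it for 0 of either group.

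SNARE and exocyst genes rose more often than they fell. Of 17 SNARE, exocyst and related genes 14 passed the low-count filter, and 10 rose, 1 fell and 3 were not called (median 0.97 in snap33, 0.14 in wild type), and SNAP33 is among the 10. SYP122 (AT3G52400), a syntaxin of the plasma membrane, had 111, 80 and 85 counts at 5 d and 1009, 1245 and 1034 at 12 d, a 9.58-fold rise. Wild type held SYP122 level, at 21.9 CPM at both ages (difference 3.27, SE 0.22, edgeR adjusted p = 1.17e-08). EXO70B2 (AT1G07000), an exocyst subunit of immune secretion, rose 11.3-fold. SYP121 and VAMP722, partners of SNAP33 in secretion, rose by 1.41 and 1.49 on the log2 scale. KN (AT1G08560), the KNOLLE syntaxin that pairs with SNAP33 at the cell plate, fell 2.26-fold, from 165, 147 and 114 counts to 83, 82 and 69, with log2 fold changes of -1.18 in snap33 and -1.23 in wild type (difference not called, edgeR adjusted p = 0.901). KN overlaps an antisense gene by 464 bases.

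The genes whose change with age differed most clearly from wild type upward were FLOT1, GLP9 and YLS9. FLOT1 (AT5G25250), a flotillin of membrane microdomains, had 51, 40 and 41 counts at 5 d and 2822, 2723 and 2467 at 12 d, a 48.7-fold rise, whereas wild type went from 11.0 to 15.8 CPM. GLP9 (AT4G14630), a germin-like protein, had 21, 37 and 19 counts and then 1733, 2010 and 1716. YLS9 (AT2G35980), a protein of the NDR1 family linked to leaf senescence, had 30, 12 and 22 counts and then 1460, 1721 and 1458. The differences were 5.07 (SE 0.26), 5.54 (SE 0.3) and 5.71 (SE 0.33), and wild type stood at 10.3 CPM for GLP9 and 8.30 for YLS9 at 12 d.

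Camalexin synthesis rose while part of aliphatic glucosinolate synthesis fell. Of 19 camalexin and indole glucosinolate genes 14 rose, 0 fell and 5 were not called (median 1.3). In wild type 8 of them rose and 4 fell (median 0.35). PAD3 (AT3G26830), the cytochrome P450 that forms the antimicrobial camalexin, had 14, 17 and 11 counts at 5 d and 1130, 1077 and 1124 at 12 d, a 63.3-fold rise (difference from wild type 3.84, SE 0.52, edgeR adjusted p = 2.78e-05). CYP71A12 (AT2G30750), an earlier enzyme of the route, rose 253-fold, although reads of it and of its near-identical neighbour CYP71A13 cannot be divided with certainty. CYP71A13 rose by 8.59 in snap33 and by 7.29 in wild type on the log2 scale. Its difference was not called (1.3, edgeR adjusted p = 0.83), while that of CYP71A12 was (4.54, edgeR adjusted p = 0.00184). Of 14 aliphatic glucosinolate genes 2 rose, 6 fell and 6 were not called, where 28.2% of all genes tested rose and 26.6% fell. CYP83A1 (AT4G13770) of the core pathway fell 1.64-fold, and MAM3 (AT5G23020), which lengthens the methionine side chain, rose 2.4-fold.

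Jasmonate and ethylene genes rose less from 5 to 12 d in snap33 than in wild type. Of 30 tested genes 16 rose, 3 fell and 11 were not called (median 0.73), against 29 that rose and 0 that fell in wild type (median 2.5). The age effect lay below that of wild type for 20 of them and above it for 2, AOC3 and ORA59. AOC1 (AT3G25760) encodes an allene oxide cyclase, an enzyme of the jasmonate route, and had 413, 375 and 239 counts at 5 d and 260, 244 and 271 at 12 d. In CPM the groups did not overlap, falling from 79.3 ± 19.3 to 48.3 ± 3.96 CPM in snap33 while wild type rose from 6.84 to 42.4 CPM (difference -3.34, SE 0.26, edgeR adjusted p = 4.39e-08). LOX2, a lipoxygenase of the same route, stood at 503 CPM at 5 d and 451 at 12 d in snap33 and was not called, against 62.0 and 287 CPM in wild type. VSP2, a storage protein induced by jasmonate, stood at 170 and 240 CPM in snap33, where it was not called, and at 7.44 and 189 in wild type. The defensin PDF1.2a rose from 123 to 695 CPM in snap33. In wild type PDF1.2a had 0.223, 0.588 and 0.67 CPM at 5 d and 56.2, 56.4 and 32.7 CPM at 12 d (difference -4.04, edgeR adjusted p = 0.000219). Near-identical relatives of PDF1.2a share reads with it. JAZ1 (AT1G19180), a repressor of jasmonate signalling, rose 3.53-fold with 239, 349 and 279 counts and then 1224, 1383 and 1220. ERF1 (AT3G23240), an ethylene response factor, went from 1, 5 and 1 counts to 107, 126 and 92. For neither was the difference from wild type called (edgeR adjusted p = 0.629 and 0.214).

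**Figure D2:**
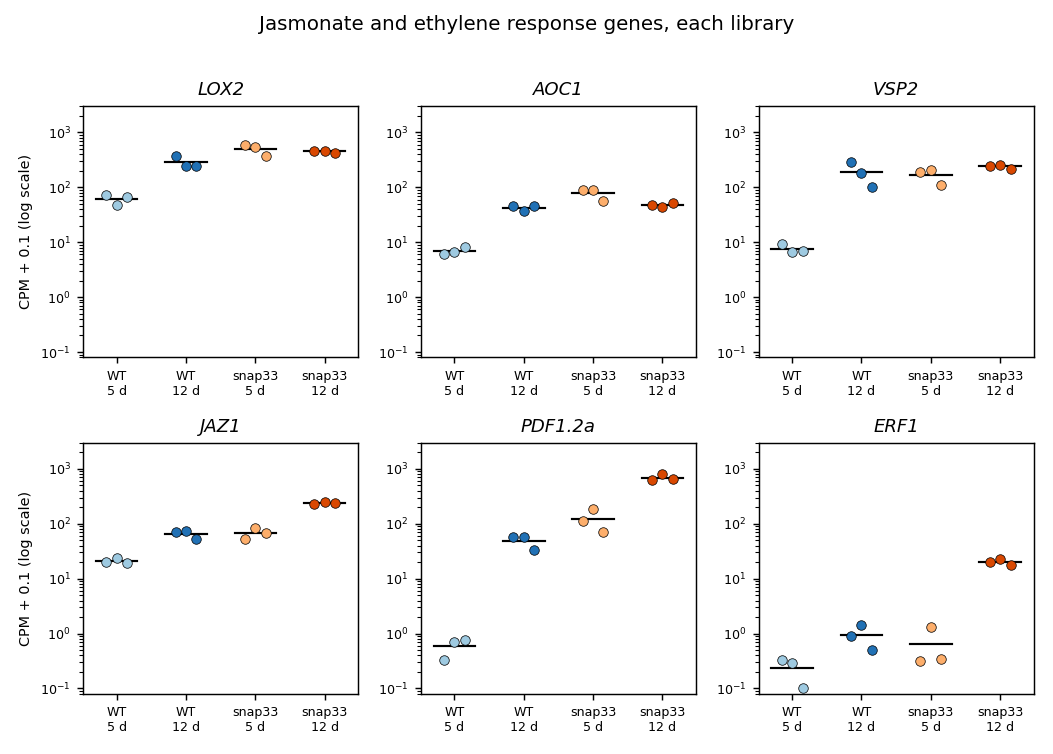
CPM plus 0.1 on a log axis for 6 jasmonate and ethylene response genes in each of the 12 libraries, with a bar at the mean of each group of 3. LOX2, AOC1, VSP2 and PDF1.2a were already far above wild type in snap33 at 5 d. PDF1.2a, JAZ1 and ERF1 stood highest in snap33 at 12 d.

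Chaperone and detoxification genes rose more often than they fell, and heat shock genes did not. All 14 endoplasmic reticulum chaperone genes had an age effect above that of wild type, 9 of them rising in snap33, 0 falling and 5 not called (median 0.53), against 9 falling and 1 rising in wild type (median -0.42). BIP3 (AT1G09080), a chaperone induced by misfolded protein, had 25, 21 and 14 counts at 5 d and 318, 330 and 295 at 12 d, a 12.6-fold rise. CRT3 (AT1G08450), a calreticulin that folds immune receptors, rose 2.86-fold. Of 15 oxidative stress and detoxification genes 11 rose, 2 fell (APX1 and CAT2) and 2 were not called. GSTU4 (AT2G29460), the chromosomal neighbour and close relative of GSTU3, had 38, 26 and 30 counts and then 1111, 960 and 1006. HSP17.4 (AT3G46230), a small heat shock protein, rose 6.37-fold and HSP70 (AT3G12580) fell 2.01-fold. Of 7 heat shock genes past the filter, of 9, 1 rose, 2 fell and 4 were not called, the falls near the 26.6% of all genes tested.

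Senescence markers rose in both genotypes. Of 23 genes 22 passed the filter, and 16 rose, 1 fell (NOL) and 5 were not called, with a median of 2.17 in snap33 and 1.3 in wild type. The age effect lay above that of wild type for 5 of these genes and below it for 6. SAG13 (AT2G29350), a reductase induced in ageing leaves, had 7, 2 and 4 counts at 5 d and 2501, 2562 and 2507 at 12 d, and its difference from wild type was not called (1.94, SE 1.0, edgeR adjusted p = 0.18). SAG12, the protease used as a marker of late senescence, had 0 counts in all 6 snap33 libraries. Of 15 abscisic acid, cold and dehydration genes 13 passed the filter, 11 rose and 0 fell, and for 9 the age effect lay below that of wild type. RD20 (AT2G33380), a caleosin, had 156, 254 and 124 counts at 5 d and 2530, 2588 and 2586 at 12 d, 11.6-fold higher, while wild type went from 3.78 to 383 CPM. ERD10 (AT1G20450), a dehydrin, had 393, 343 and 330 counts and then 1013, 1070 and 1108, with no called difference from wild type (edgeR adjusted p = 0.294).

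Photosynthesis genes fell in snap33. Of 38 photosystem and antenna genes 0 rose, 35 fell and 3 were not called (LHCA4, PSBO2 and FNR1), with a median of -0.71, against 2 that rose, 5 that fell and a median of -0.05 in wild type. FD2 (AT1G60950), the main leaf ferredoxin, had 12305, 8626 and 11169 counts at 5 d and 3887, 5006 and 4449 at 12 d, a 2.98-fold fall from 2480 ± 356 to 831 ± 104 CPM (edgeR adjusted p = 6.6e-10). PSAG (AT1G55670), a subunit of photosystem I, fell 1.81-fold. All 18 tested Calvin cycle genes fell (median -0.99, against -0.28 in wild type). RBCS1B (AT5G38430), a small subunit of Rubisco, had 12073, 8548 and 11679 counts at 5 d and 3750, 4428 and 4274 at 12 d, 3.22-fold lower, and its reads may be shared with the other RBCS genes. PGK1 (AT3G12780), phosphoglycerate kinase, fell 2.37-fold. The age effect lay below that of wild type for 32 photosystem genes, LHCA4 among them, and 15 Calvin cycle genes, and above it for 0 of either. In whole seedlings, fewer cells of a kind and less RNA per cell cannot be told apart.

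**Figure D3:**
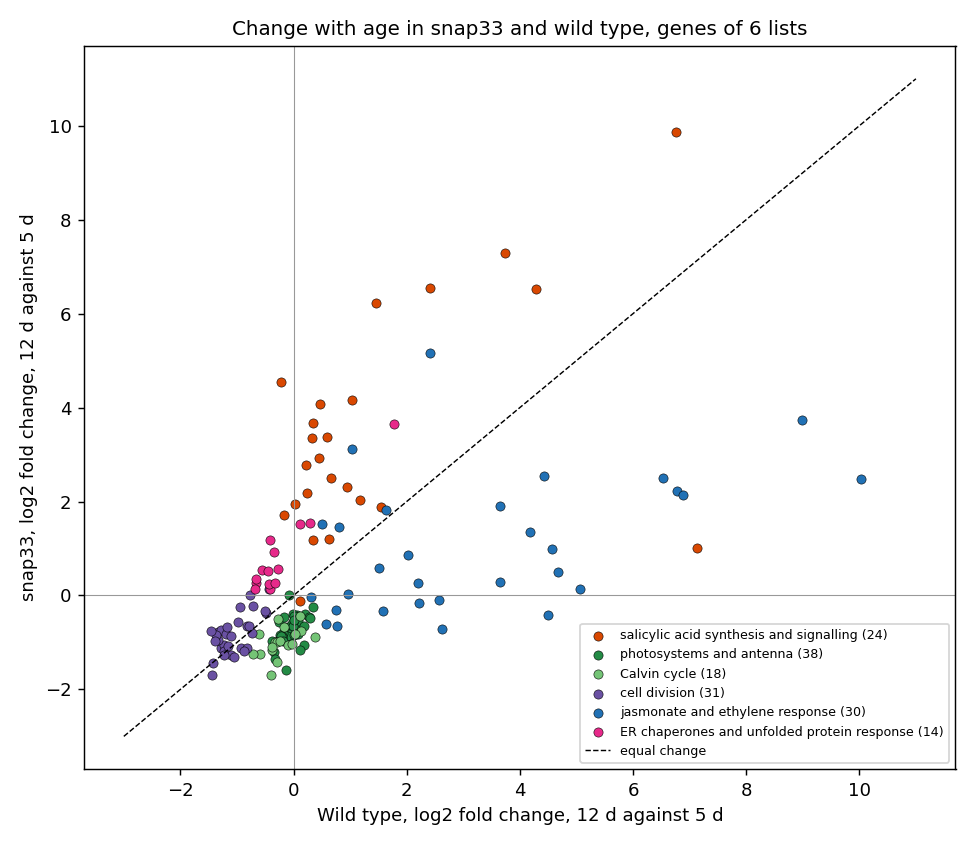
Log2 fold change of 12 d against 5 d in wild type (x axis) and in snap33 (y axis) for the tested genes of 6 lists, with a dashed line where both changes are equal. Salicylic acid and chaperone genes lie mostly above the line, photosystem, Calvin cycle and jasmonate genes mostly below it, and cell division genes near it.

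Cell division genes fell in both genotypes. Of 31 genes 0 rose, 23 fell and 8 were not called (median -0.84), and in wild type 27 fell (median -1.11). HIK (AT1G18370), a kinesin of cytokinesis, had 68, 37 and 49 counts at 5 d and 22, 19 and 18 at 12 d. The age effect was above that of wild type for 2 of the 31 genes, PCNA1 and TSO2, and below it for 0. Growth and wall genes fell in part, where 28.2% of all genes tested rose and 26.6% fell. Among 16 expansin and primary wall genes 1 rose, 7 fell and 8 were not called, and XTH9 (AT4G03210), a xyloglucan-modifying enzyme, had 895, 705 and 707 counts and then 250, 274 and 259. XTH4 (AT2G06850) fell 2.74-fold, against -0.24 on the log2 scale in wild type, where it was not called (difference -1.22, SE 0.17, edgeR adjusted p = 3.66e-05). Of 18 auxin genes 16 passed the filter, and 2 rose, 9 fell and 5 were not called. IAA17 (AT1G04250), a repressor of auxin response, fell 1.85-fold and GH3.3 (AT2G23170), which inactivates auxin by conjugation, rose 2.29-fold.

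Genes of seed oil use, flavonoids and nutrients moved in both directions, where 28.2% of all genes tested rose and 26.6% fell. ICL (AT3G21720), the isocitrate lyase of the glyoxylate cycle that turns seed oil into sugar, had 989, 1068 and 1736 counts at 5 d and 108, 85 and 99 at 12 d, a 16.2-fold fall. Wild type fell from 63.6 to 7.44 CPM, and the difference was not called (edgeR adjusted p = 0.172). MLS and PMDH2 fell too, while the other 14 of the 17 seed oil genes rose, among them ACX2 (AT5G65110), an oxidase of fatty acids, 2.89-fold. Of 18 flavonoid genes 1 rose, 15 fell and 2 were not called (median -1.21, and -0.92 in wild type). CHS (AT5G13930), chalcone synthase, fell from 7701, 6555 and 7753 counts to 3268, 3631 and 3360, and F3H (AT3G51240), a hydroxylase of the pathway, fell 2.25-fold, with 1588 bases under an antisense gene. In the iron list 5 of 12 genes rose, 6 fell and 1 was not called. FIT (AT2G28160), the regulator of root iron uptake, fell 4.99-fold and FER3 (AT3G56090), a ferritin, 2.55-fold, while BHLH38, BHLH39, BHLH100 and BHLH101 rose in snap33 and had log2 fold changes of -1.14, -1.17, -0.72 and -0.99 in wild type. Of 11 phosphate starvation genes 4 rose, 1 fell and 6 were not called, against 9 that rose and 0 that fell in wild type. PAP17 (AT3G17790), an acid phosphatase, rose 2.59-fold and SQD1 (AT4G33030), an enzyme of sulfolipid synthesis, fell 2.15-fold.

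Sugar transport and clock genes moved in both directions, and hypoxia genes rose in both genotypes. Of 11 sugar transport genes 6 rose and 2 fell, against 6 and 3 in wild type, where 28.2% of all genes tested rose and 26.6% fell in snap33. STP13 (AT5G26340), a hexose importer, was 8.3-fold up in snap33 and SWEET11 (AT3G48740), a sucrose exporter, 2.03-fold down. Of 10 hypoxia genes 7 rose and 0 fell in each genotype, and the age effect lay above that of wild type for 3. In snap33 SUS1 (AT5G20830), a sucrose synthase, was 5.74-fold and HB1 (AT2G16060), a haemoglobin, 4.23-fold higher. Of 13 clock genes 12 passed the filter, 3 rose and 5 fell, beside 28.2% and 26.6% of all genes tested. TOC1 (AT5G61380), an evening gene, rose 2.31-fold and GI (AT1G22770) fell 1.77-fold. The hour of harvest was not used here.

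**Figure D4:**
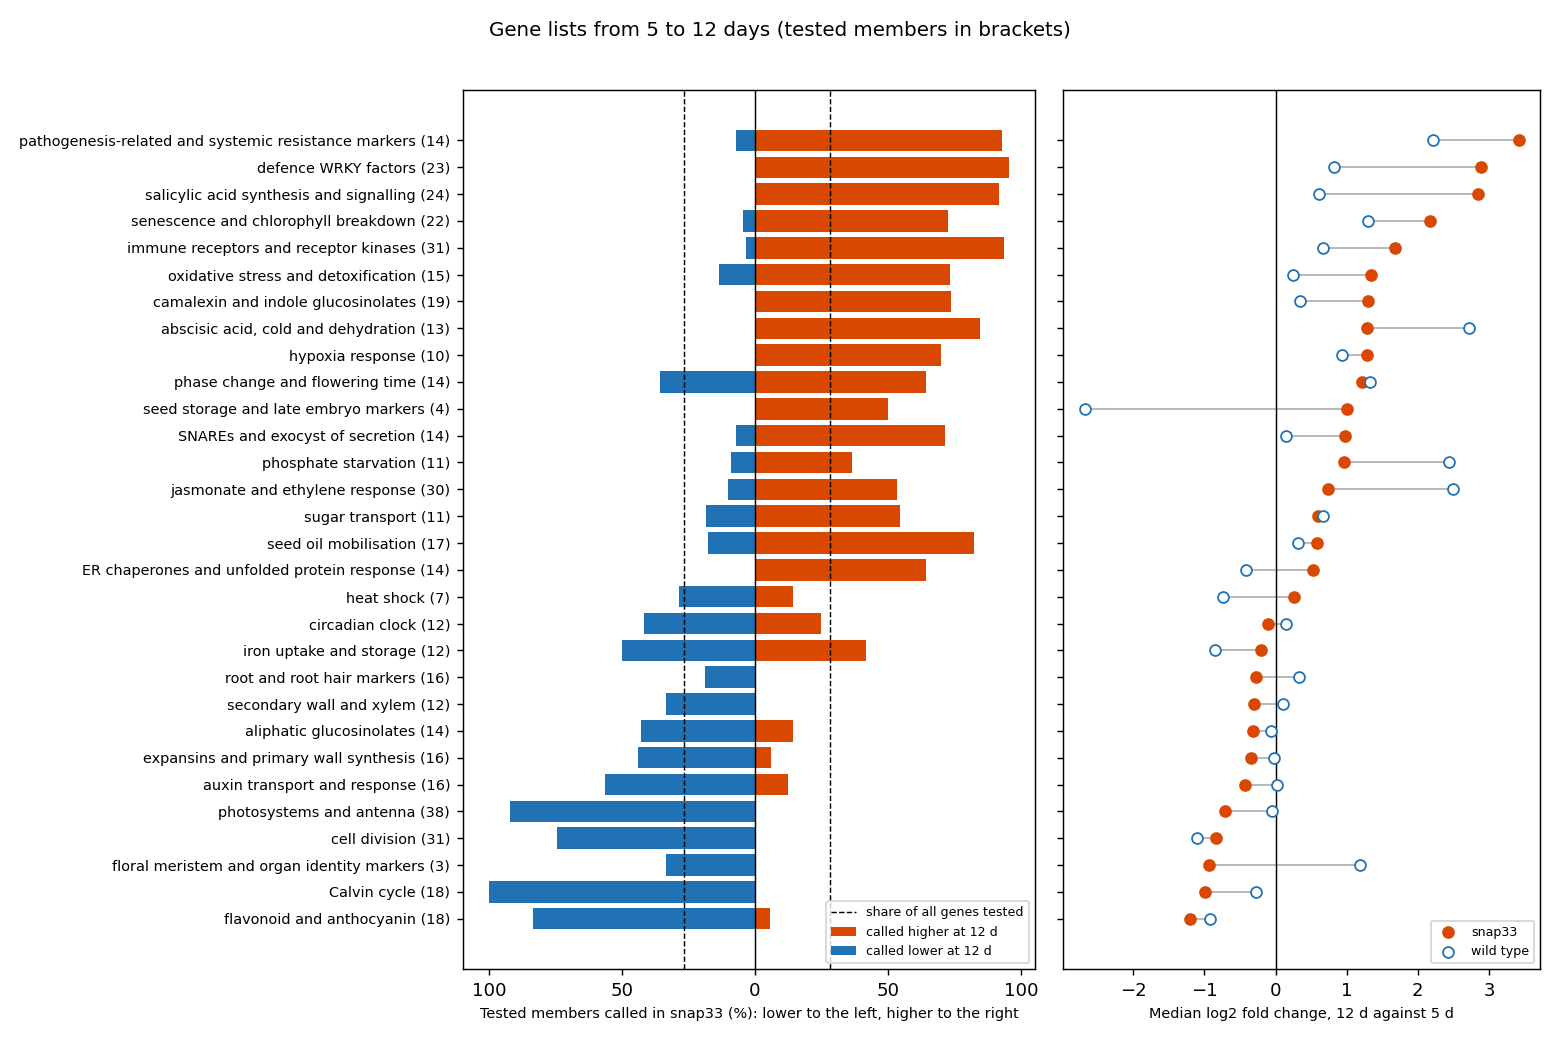
Left, share of the tested members of each of 30 lists called higher (to the right) or lower (to the left) in snap33 at 12 d, with dashed lines at the shares of all genes tested, 28.2% and 26.6%. Right, median log2 fold change in snap33 (filled) and wild type (open). Salicylic acid genes have medians of 2.85 and 0.61, and jasmonate genes of 0.73 and 2.5.

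Developmental stage was read from genes that rise or fall as plants pass from juvenile growth to flowering. Of 19 phase change and flowering-time genes 14 passed the filter, a member that is high at 1 age only passing through that age, and 9 rose and 5 fell, against 9 and 4 in wild type, and the age effect differed for 1, SVP. SOC1 (AT2G45660), a promoter of flowering, had 22, 20 and 30 counts at 5 d and 249, 235 and 208 at 12 d, and it rose by 2.94 in snap33 and 2.91 in wild type on the log2 scale (difference 0.03, SE 0.28). AGL24 (AT4G24540), which acts with SOC1, went from 4, 4 and 3 counts to 37, 33 and 29. FLC, the repressor of flowering, fell by 2.09 in snap33 and by 2.15 in wild type. FLC shares 6067 bases with antisense genes, whose reads cannot be told from its own without strand. FT (AT1G65480), the mobile flowering signal, had 3, 4 and 6 counts at 5 d and 16, 14 and 14 at 12 d (1.42, SE 0.47, edgeR adjusted p = 0.0157). Leaving out snap33 5 d replicate 1 ended that call (edgeR adjusted p = 0.0772). FUL (AT5G60910) was below the count filter, with 3, 0 and 0 counts and then 5, 13 and 14, a count ratio of 8.58 with an interval of 2.68 to 43.8.

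Most floral meristem and organ identity genes had few or no reads, and PI did not. AP1 and CAL had 0 counts in all 6 snap33 libraries, and LFY (AT5G61850) had 2, 2 and 0 counts at 5 d and 4, 3 and 1 at 12 d. Of the 12 floral genes 3 passed the filter, and PI (AT5G20240), a petal and stamen identity gene, was the only one called. PI had 61, 289 and 276 counts at 5 d and 97, 106 and 99 at 12 d (-1.39, SE 0.35, edgeR adjusted p = 0.00232). Replicate 1 at 5 d lay below the 12 d libraries and its 2 companions above them, so the groups overlap. SEP3 (AT1G24260) had 14, 11 and 12 counts and then 12, 5 and 7, and was not called (edgeR adjusted p = 0.0599).

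**Figure D5:**
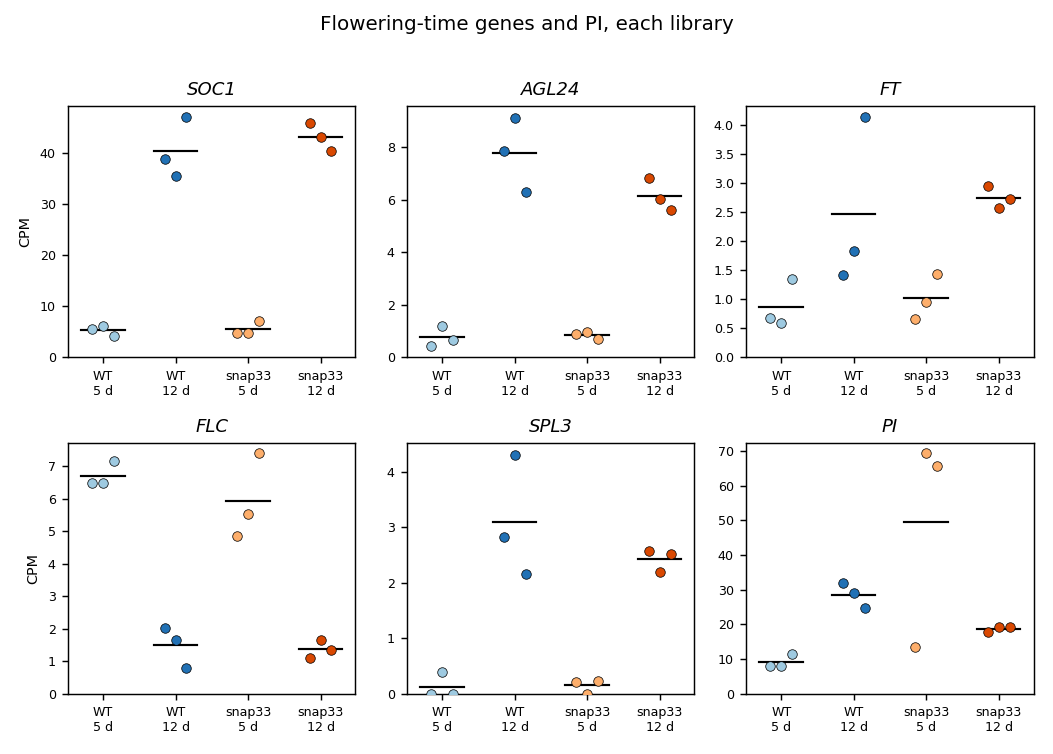
CPM on linear axes for 5 flowering-time genes and PI in each of the 12 libraries, with a bar at the mean of each group of 3. SOC1, AGL24 and FLC reached similar levels in both genotypes at 12 d, and replicate 1 of snap33 at 5 d stands apart for PI.

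Markers of root, secondary wall and seed gave few calls, unlike the photosystem genes of green tissue above. Over all genes tested 28.2% rose and 26.6% fell. Of 22 root and root hair markers 16 passed the filter, and 0 rose, 3 fell (SHR, SCR and CASP5) and 13 were not called. In wild type 5 of these markers rose and 3 fell, and the age effect lay below that of wild type for 4. CASP5 (AT5G15290), a Casparian strip protein, had 35, 23 and 28 counts at 5 d and 10, 7 and 12 at 12 d. Of 14 secondary wall genes 12 passed the filter and 4 fell, near the share of all genes. FLA12 (AT5G60490), a fasciclin-like protein, had 61, 85 and 69 counts and then 36, 63 and 43, and in CPM its groups did not overlap. LAC17 (AT5G60020), a laccase, was no longer called when snap33 5 d replicate 1 was left out (edgeR adjusted p = 0.0693), and 2266 bases of it lie under an antisense gene. Of 15 seed storage and late embryo markers 4 passed the filter and 2 rose, OLEO4 (AT3G27660), an oleosin, 2.82-fold and SESA5 (AT5G54740), an albumin, with 17, 17 and 18 counts and then 57, 17 and 68. The SESA5 groups overlap, and its call (edgeR adjusted p = 0.0496) was lost under 8 alternatives. The part of these markers in the changes above was not tested.

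Among the largest falls were ICL, given above, and genes listed here by locus code only. AT3G12900, a 2-oxoglutarate and iron dependent oxygenase, had 160, 163 and 153 counts at 5 d and 0, 7 and 9 at 12 d, a log2 fold change of -5.17 in snap33 and -5.34 in wild type. AT1G08757 and AT2G08950, listed as other RNA, fell 15.2-fold and 17.2-fold, and AT3G61920 and AT4G09110, a RING/U-box protein, 11.9-fold and 11.8-fold. Downward against wild type, the smallest p-values belonged to FBA5, AOC1 and AT2G03980. FBA5 (AT4G26530), an aldolase, had 645, 636 and 778 counts at 5 d and 345, 443 and 337 at 12 d, while wild type rose from 113 to 350 CPM (difference -2.83, SE 0.21, edgeR adjusted p = 2.98e-08). It overlaps a neighbour on the same strand by 109 bases. AT2G03980, a GDSL-like lipase, fell 1.99-fold in snap33 and rose from 21.6 to 48.2 CPM in wild type.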

How the data were processed

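Polyadenylated RNA of whole seedlings was sequenced as stranded single reads, per the labels' protocols. The authors deposited raw, unnormalized read counts for each gene in the layout of htseq-count. Per the submitters' processing notes, STAR and TAIR10 were used. For the annotation, settings and use of strand in counting nothing is given in the sources used here. Antisense genes also cover 479 bases of PSAG, 453 of HSP17.4, 386 of BHLH38, 251 of WRKY29, 122 of PAP17 and 25 of PGK1, whose values are uncertain to that extent. Rows for unassigned reads, 9.26% to 12.15% of each library, were left out.

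All 12 libraries were fitted with edgeR 4.0.16 in R 4.3.3 (quasi-likelihood test, TMM scaling, default low-count filter, 1 mean per group, Benjamini-Hochberg adjustment over 18830 genes, calls at an adjusted p under 0.05). On counts simulated for snap33 at 12 d against 5 d over 18531 genes, it recovered 95 of 100 genes changed by 1 on the log2 scale and 100 of 100 changed by 2, and called 6 of 18331 unchanged genes. The simulated counts used means over all 12 libraries and the same spread for every gene. Their changed genes were few, not low in counts and split evenly by direction, whereas 54.8% of genes were called in the real comparison. The simulation therefore cannot give the rate of missed or false calls in these data. CPM are counts over TMM-scaled library totals. Replicates of a group were harvested on successive days, per the labels, so their spread holds a day of harvest and of age, and nothing in the labels says whether they came from separate plates. Within an age, same-numbered libraries of both genotypes share a harvest day. Their deviations from the group means correlated at -0.25 to 0.0, and those of different days at -0.13 to 0.2. Harvest day as a block, an alternative added after the results were seen, can be fitted only for the difference between genotypes. Intervals, at 95%, and floors cover counting error only. DESeq2 1.42.0, other scaling, no filter, equal depth, a replicate block, each genotype alone, no organelle genes and leaving out each library were the alternatives.

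Members, the 30 gene lists and the tests were chosen with earlier results of these data known. The genes named by rule are SNAP33, the 6 largest called changes in each direction with no overlap and a mean of 5 CPM or more at the higher age, the 2 called members of each list with the smallest p (all, where 1 or 2 were called), the 3 smallest p-values in each direction of the difference between genotypes, and PR1, PR2, PR5, ICS1, FT, SOC1, FUL, LFY, AP1 and SEP3. Other genes named were chosen from the lists after their values were seen. Of 32744 genes 32548 matched the RefSeq annotation of TAIR10.1 by locus code. Motif shares were computed for 28 pairs of motif and gene set, as descriptions with no test. A first selection of 11 promoters, picked by hand, was viewed and replaced by those of the 6 largest rises, shown whether or not they hold a match, of which 1 is not reported here.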

Additional observations from a re-analysis of the deposited data

Results flagged for a closer look

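For 54 genes named by rule the change from 5 to 12 d differed between snap33 and wild type by edgeR's test of the difference itself. Values below are the log2 fold change in snap33 minus that in wild type, and they hold the earlier planting date of snap33 at 12 d as well as the genotype. Above and below wild type refer here to this change with age and not to the level. In mean CPM, SNAP33 lay below wild type at both ages and RD20 above it. Immune signalling and pathogenesis-related genes above wild type were ICS1 at 2.79, PAD4 at 3.61, PR5 at 4.36, PCR1 at 4.67, WAK1 at 2.06, WRKY70 at 3.61 and WRKY51 at 5.64. Camalexin and glucosinolate genes above wild type were PAD3 at 3.84, CYP71A12 at 4.54 and MAM3 at 1.42. CYP71A12 may share reads with CYP71A13, for which no difference was called. Camalexin and glucosinolate genes below wild type were CYP83A1 at -0.66. Secretion and membrane genes above wild type were SNAP33 at 1.33, SYP122 at 3.27, EXO70B2 at 2.56, FLOT1 at 5.07, GLP9 at 5.54 and YLS9 at 5.71. Chaperone and stress genes above wild type were BIP3 at 1.88, CRT3 at 1.4, HSP17.4 at 2.68, GSTU4 at 2.16, AOX1D at 6.57, HB1 at 0.94, SUS1 at 0.88 and STP13 at 1.5. Chaperone and stress genes below wild type were RD20 at -3.15. Photosynthesis and carbon genes below wild type were RBCS1B at -1.29, PGK1 at -0.65, FD2 at -1.44, PSAG at -0.63, FBA5 at -2.83 and SWEET11 at -0.84. Wall, auxin and root genes above wild type were GH3.3 at 2.32. Wall, auxin and root genes below wild type were XTH4 at -1.22, XTH9 at -0.74, IAA17 at -0.66, SCR at -0.62 and FLA12 at -1.27. Nutrient, flavonoid and jasmonate genes below wild type were FIT at -0.83, FER3 at -0.79, PAP17 at -1.07, SQD1 at -1.08, CHS at -0.75 and AOC1 at -3.34. Clock, flower and seed genes above wild type were TOC1 at 1.14 and SESA5 at 7.46. Clock, flower and seed genes below wild type were GI at -0.93, SEP3 at -1.69 and PI at -3.03. Genes with little annotation above wild type were AT4G10860 at 11.47. Genes with little annotation below wild type were AT1G08757 at -1.68, AT2G08950 at -3.25, AT2G03980 at -2.15 and AT4G09110 at -1.96.

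The fitted values of AOX1D, AT4G10860 and SESA5 rest on groups at or near 0 counts and give no fold. Under at least 1 alternative the call of the difference was lost for 10 of these genes: AOX1D (13, highest edgeR or DESeq2 adjusted p = 1.0), AT4G09110 (8, highest edgeR or DESeq2 adjusted p = 0.329), BIP3 (1, highest edgeR or DESeq2 adjusted p = 0.146), CYP71A12 (1, highest edgeR or DESeq2 adjusted p = 0.102), CYP83A1 (3, highest edgeR or DESeq2 adjusted p = 0.0618), FIT (14, highest edgeR or DESeq2 adjusted p = 0.141), PCR1 (1, highest edgeR or DESeq2 adjusted p = 0.106), SCR (8, highest edgeR or DESeq2 adjusted p = 0.11), SEP3 (6, highest edgeR or DESeq2 adjusted p = 0.0746), SNAP33 (14, highest edgeR or DESeq2 adjusted p = 0.205), where the first number counts the alternatives.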

How the results depend on the processing

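The count of genes higher in snap33 at 12 d lay between 4823 and 5710 with each library left out in turn, and that of lower genes between 4389 and 5366. Those at least 2-fold higher lay between 2722 and 2822, and at least 2-fold lower between 1501 and 1630. For the difference between genotypes the ranges were 1688 to 2412 above and 1872 to 2729 below. With the replicate number as a block 5178 genes were higher and 4846 lower, 5141 and 4820 of them shared with the fit without it. Same-numbered libraries correlated at 0.04, 0.11 and 0.05 in their deviations and differently numbered ones at -0.07 to 0.03, each library best with its own number. Across ages a number stands for no shared day, so the ages are not taken as paired. With harvest day as a block, which pairs the genotypes, the age effect lay above that of wild type for 1637 genes and below it for 1849, of which 1609 and 1834 are shared with the fit without it. Of 54 named differences that block ended 5 calls (SNAP33, AOX1D, FIT, SCR and AT4G09110). DESeq2 called 4962 and 4526 genes, upper-quartile scaling 4371 and 6313 (2333 and 2218 at 2-fold), no filter 5628 and 5112, and equal depth 5224 and 4876. Of 1500 values of 79 named genes under 19 alternatives, 1485 kept direction and call, 10 lost the call (FT, SESA5 and LAC17), 5 gained one (SEP3) and 0 reversed. Of 1026 values of their called differences, harvest day included, 69 lost the call and 0 reversed. The cause was not tested. At this depth, genes with a few counts, SNAP33 in its mutant among them, carry wide error. Age cannot be told apart from planting date in snap33, nor genotype from planting date in the difference from wild type.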

Other observations

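Gene families grouped by the stem of their symbol, chosen after the values were seen, gave further counts for snap33 at 12 d against 5 d. Over all genes tested 28.2% rose and 26.6% fell in snap33, and 21.5% rose and 19.2% fell in wild type. Of 17 EXO genes, mostly subunits of the exocyst that tethers vesicles, 13 rose and 2 fell, against 5 and 0 in wild type. Of 17 CPK calcium-dependent kinases 12 rose and 0 fell, and of 28 VPS genes of vacuolar sorting 16 rose and 1 fell, while 3 of each rose in wild type. Of 19 ATG autophagy genes 13 rose and 1 fell, and 10 rose in wild type. Downward, 13 of 14 FLA fasciclin-like proteins, 12 of 14 PTAC proteins of plastid transcription and 19 of 21 RPL ribosomal proteins fell, against 8, 6 and 20 in wild type. Of 16 genes with the stem PIP, which aquaporins share with other genes, 10 fell and 2 rose in snap33. In wild type 8 of the PIP stem rose and 1 fell. Of 17 HSP heat shock proteins 1 rose and 8 fell, against 1 and 9 in wild type. No test of these families against other genes was made.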
